A study of Mus musculus with 6 samples.

Results

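The transforming growth factor beta (TGF-beta) pathway was described through 10 genes, all found among 28822 gene identifiers of the deposited count table by their mouse symbols. They were the ligand gene Tgfb1, the receptor genes Tgfbr1 and Tgfbr2, the SMAD genes Smad3 and Smad7, the feedback genes Pmepa1 and Skil, and the ID genes Id1, Id2 and Id3. Bulk RNA sequencing covered 6 samples of mouse cells from Transwell co-cultures, in which a porous membrane parts the cells above from those below while soluble factors pass. The title of the series names bone marrow-derived macrophages (BMDMs) above and HT22, a hippocampal neuronal line, below, while its design text allows the microglial line BV2 or BMDMs above and the sample labels name BMDMs and HT22 together, so the sequenced upper cells are called macrophages on the title's word. All 6 samples share the 2 h of oxygen-glucose deprivation (OGD, a model of ischaemia) that the HT22 cells had undergone. BW723C86, an agonist of the serotonin receptor 5-HT2B, was given to 3 samples and its vehicle DMSO to 3, and the comparison asked how the agonist altered the macrophage transcriptome. The sources give no mouse strain, age, dose or length of treatment, nor do they say whether separate cultures or animals gave the replicates. A p-value here may thus reflect technical spread alone.

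As background, TGF-beta is secreted bound to a latency peptide and, once released, binds the type II receptor TGFBR2, which recruits and activates the type I receptor kinase TGFBR1. The kinase phosphorylates SMAD2 and SMAD3, which enter the nucleus with SMAD4, while SMAD7, PMEPA1 and the co-repressor SKIL (SnoN) limit the signal, and their genes are themselves targets of it. ID proteins are helix-loop-helix proteins without a DNA-binding region that hold E proteins away from DNA, and their genes are classical targets of bone morphogenetic proteins (BMPs) acting through SMAD1 and SMAD5. In the brain, microglia are known to need TGF-beta for their mature expression pattern.

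Total counts per library ran from 58841307 to 75931615. Levels are given as CPM, which sets each gene's count against the size of its library as adjusted by edgeR's TMM scaling. Changes were tested with edgeR's quasi-likelihood test, and the adjusted p is Benjamini-Hochberg's over 15567 genes, with a threshold of 0.05. Log2 fold changes and their standard errors (SE) are BW723C86 over DMSO, and intervals are 95% intervals of the fold from that fit. By the chi-square of its counts, BW723C86 replicate 2 stood farthest from its group (35.5 and 24.4 per degree of freedom against replicates 1 and 3, and 11.1 between those), and results that turn on it are given with and without it. Markers of cell types were then looked at. No sample known to be BV2 was there for comparison, so the macrophage markers cannot tell BMDMs from BV2. All 14 macrophage markers were detected, at 37710 to 38568 summed CPM in DMSO and 33827 to 34910 with BW723C86. Of these markers 8 of 14 rose and 4 fell (57.1% and 28.6%, median log2 fold change 0.28), against 21.3% and 20.7% of all tested genes. Most of the sum was Lyz2, which encodes lysozyme and fell from 32877 ± 432 to 29407 ± 620 CPM. Neuronal markers were looked at for HT22 RNA. No sample was of HT22 cells alone, so low values of these markers cannot show that HT22 RNA was absent. Of 12 neuronal markers 9 were matched, with Map2, Nefl and Dcx at 0 in all 6 libraries. They summed to 1.88 to 2.61 CPM in DMSO and 3.70 to 4.90 with BW723C86. Most of that sum was Eno2, encoding neuronal enolase, which rose from 1.72 ± 0.249 to 3.94 ± 0.662 CPM, while Nefh, the other neuronal marker tested, had 0.418 ± 0.204 and 0.212 ± 0.0785 CPM without passing.

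With BW723C86, Id1, encoding an inhibitor of DNA binding, fell 2.78-fold, Pmepa1, encoding a membrane protein that binds receptor-regulated SMADs, fell 1.68-fold, and Skil, encoding a SMAD co-repressor, fell 1.27-fold. The type I receptor gene Tgfbr1 rose 1.29-fold. The other 6 members, Tgfb1, Tgfbr2, Smad3, Smad7, Id2 and Id3, did not pass the test. All 10 members were expressed enough to be tested, and 4 of 10 were called (1 higher, 3 lower) against 42% of all tested genes (21.3% higher, 20.7% lower). The share called among the members is thus near that of all genes. The median log2 fold change of the members was -0.08, beside 0.00 over all tested genes, and the median absolute change was 0.20 beside 0.27. Groups did not overlap for 5 of the 10 members, against 52.3% of all tested genes. In bulk RNA, fewer cells of a type and less RNA per cell cannot be told apart.

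**Figure D1:**
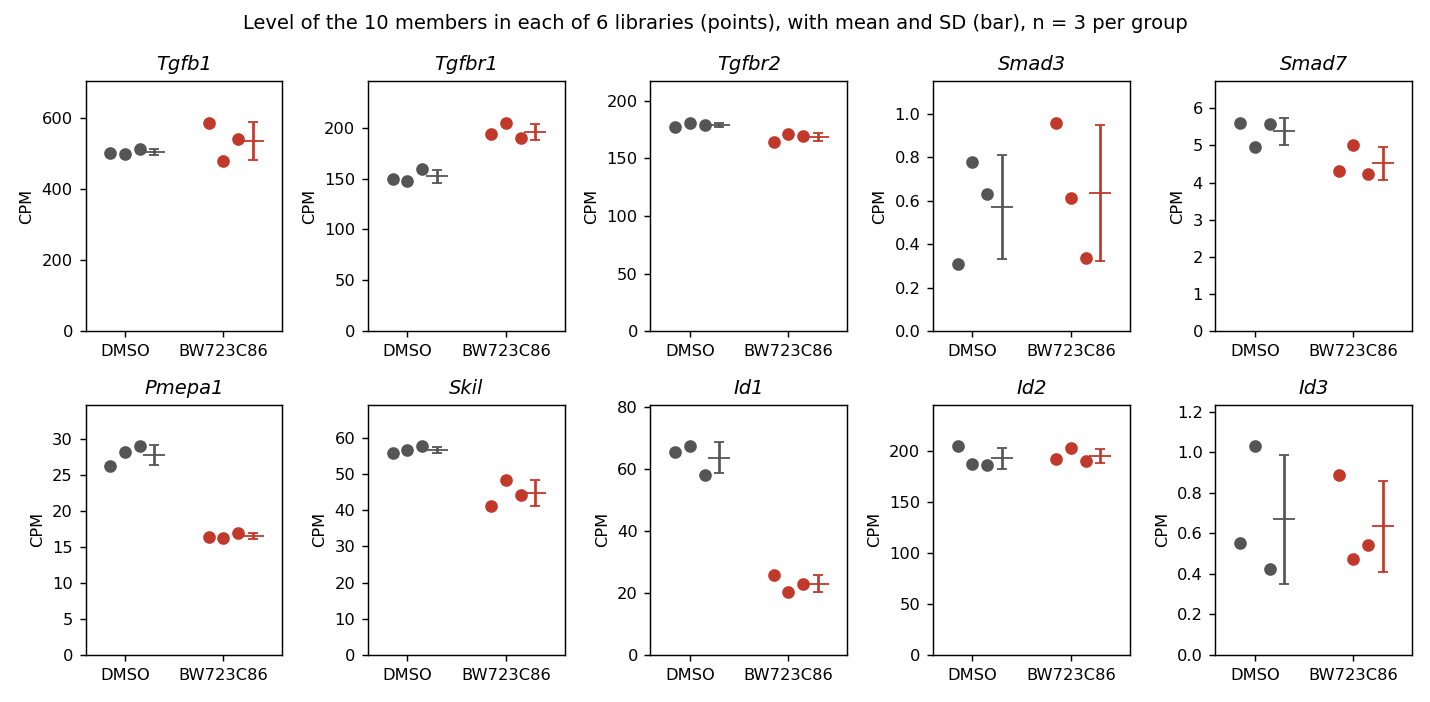
Level of each member (y axis, CPM, from 0) in the 3 DMSO libraries (grey) and the 3 BW723C86 libraries (red), with the mean and SD of each group as a bar. Id1, Pmepa1 and Skil lie lower and Tgfbr1 higher in every BW723C86 library than in any DMSO library, while Id2 and Tgfb1 overlap and Smad3 and Id3 lie at about 1 CPM or less.

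Many genes listed as markers of other cells moved with the treatment. Over all tested genes, 21.3% rose and 20.7% fell. Of the neutrophil markers 10 of 10 tested fell, from sums of 2635 to 2712 CPM in DMSO to 709.8 to 814.6 CPM with BW723C86. Monocyte markers also fell for 10 of 10, from 6044 to 6124 to 1487 to 1610 CPM. Dendritic cell markers rose for 8 of 10, from 1541 to 1592 to 6655 to 7378 CPM. Most of the neutrophil sum was Mmp8 (2417 CPM in DMSO, 716 with BW723C86). Most of the monocyte sum was Chil3 (3203 and 1105) and Fn1 (2170 and 243). Most of the dendritic sum was Itgax (471 and 2360), H2-Aa (428 and 2299) and H2-Ab1 (524 and 2200). The neutrophil genes Camp, Mpo and Retnlg and the dendritic genes Xcr1 and Siglech were too low to be tested. Flt3 and Ccr7, also dendritic, did not pass. Fibroblast markers summed to 8.97 to 10.5 CPM in DMSO and 4.48 to 7.29 CPM with BW723C86, with Lum at 0 in every library. Only 1 of 5 tested was called (20%, against 42% of all tested genes). This was Thy1, which fell from 3.58 ± 0.174 to 1.15 ± 0.0978 CPM, while Acta2, Pdgfra, Pdgfrb and Postn did not pass. Of 5 endothelial markers tested 3 rose and 1 fell (sums of 180.3 to 182 and 252 to 258 CPM, with Tek at 0 throughout), and of 7 lymphocyte and mast cell markers 6 fell (59.2 to 63.3 and 12.9 to 15.3 CPM). Each of these sums, and those of macrophage and neuronal markers, gave an exact two-sided permutation p of 0.1, the smallest that 3 against 3 samples allow. The lists were chosen with earlier results of these data known, so these p-values lend no independent support. Whether such cells were present was not tested, nor was any part of theirs in the members' differences.

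The ligand gene Tgfb1 (ENSMUSG00000002603) encodes TGF-beta 1. It was measured at 502, 498 and 513 CPM in DMSO replicates 1 to 3 and at 587, 480 and 542 CPM in BW723C86 replicates 1 to 3. The DMSO libraries lay close together, and the BW723C86 libraries spread to both sides of them, replicate 2 below and replicates 1 and 3 above. The means were 504 ± 8.08 and 536 ± 53.8 CPM (SD, n = 3 each), and the change did not pass (adjusted p = 0.29 by edgeR, log2 fold change 0.09, SE 0.06, interval 0.967- to 1.17-fold). Without BW723C86 replicate 2 it passed, at a log2 fold change of 0.15 (adjusted p = 0.0024, from a range of 0.0024 to 1 over all alternatives).

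Of the receptor pair, 1 gene passed the test. Tgfbr1 (ENSMUSG00000007613), encoding the type I kinase also called ALK5, was at 150, 147 and 159 CPM in DMSO and at 194, 205 and 190 CPM with BW723C86. The groups did not overlap, and the means went from 152 ± 6.13 to 196 ± 7.83 CPM (adjusted p = 4.8e-05 by edgeR, log2 fold change 0.37, SE 0.05, interval 1.2- to 1.39-fold). Tgfbr2 (ENSMUSG00000032440), encoding the ligand-binding type II receptor, was at 177, 181 and 179 CPM in DMSO and at 165, 171 and 169 CPM with BW723C86. These groups did not overlap either, yet the difference for Tgfbr2 was small, from 179 ± 1.91 to 168 ± 3.45 CPM, and did not pass (adjusted p = 0.11, log2 fold change -0.09, SE 0.04). Without BW723C86 replicate 2 it passed as a fall of 0.12 on the log2 scale (adjusted p = 0.0096, from a range of 0.0096 to 1 over all alternatives).

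The ratio of the receptors within a library does not depend on the scaling between libraries. Per kb of exon, Tgfbr1 over Tgfbr2 was 1.06, 1.02 and 1.11 in DMSO and 1.48, 1.5 and 1.4 with BW723C86. Near parity in DMSO thus became about 1.46 ± 0.0504 in favour of the type I receptor, with no overlap between groups. The ratio was chosen after the values were seen and is given without a test.

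The stretches before the starts of these receptor genes are shown because their levels are set side by side above. They come from RefSeq's annotation of GRCm38.p6, a build other than those the submitters name, and each is 250 bases long and ends at the base before the start. Capitals mark the letters CAGAC (a core element bound by SMAD3 and SMAD4) and GGCGCC (the GC-rich element bound by SMAD1 and SMAD5), each searched on both strands, so that GTCTG is also in capitals. Of 32817 such stretches in the table, 42.2% hold CAGAC and 9.59% hold GGCGCC. Stretches of 6 of the 10 members were examined. Id1, Pmepa1 and Skil had no entry, and Smad7 was left out of the search. Tgfbr1 has 2 starts there, and the more upstream is printed (chr4:47352972-47353221, plus strand), beside Tgfbr2 (chr9:116175364-116175613, minus strand).
Tgfbr1: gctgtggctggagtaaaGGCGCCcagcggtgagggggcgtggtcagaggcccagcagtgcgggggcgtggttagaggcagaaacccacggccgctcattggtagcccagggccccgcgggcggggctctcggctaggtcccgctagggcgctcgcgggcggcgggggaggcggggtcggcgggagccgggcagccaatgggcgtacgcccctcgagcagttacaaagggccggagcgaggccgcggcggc
Tgfbr2: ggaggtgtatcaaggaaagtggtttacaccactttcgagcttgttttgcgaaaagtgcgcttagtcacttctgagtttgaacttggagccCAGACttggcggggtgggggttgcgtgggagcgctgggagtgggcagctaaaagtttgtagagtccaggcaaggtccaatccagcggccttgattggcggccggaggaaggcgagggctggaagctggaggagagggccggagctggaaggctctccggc
The Tgfbr1 stretch holds 1 GGCGCC and 0 CAGAC, and that of Tgfbr2 holds 1 CAGAC and 0 GGCGCC. The stretch before the other Tgfbr1 start (chr4:47385966-47386215, plus strand), not printed, holds 1 CAGAC and 0 GGCGCC, as that of Tgfbr2 does. Such matches are a description of the letters and do not show binding.

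Smad3 (ENSMUSG00000032402), encoding a signal-carrying SMAD, had low counts. Its counts were 24, 47 and 49 in DMSO and 55, 44 and 20 with BW723C86, or 0.309, 0.779 and 0.63 CPM and 0.959, 0.612 and 0.338 CPM. The groups overlapped, with BW723C86 replicate 1 above every DMSO library and DMSO replicate 1 below every BW723C86 library. The log2 fold change of 0.16 had an SE of 0.47 (adjusted p = 0.82 by edgeR), and its interval of 0.546- to 2.27-fold leaves room for changes of that size. Low counts in this table pile up at multiples of 4 (4613 values of 4, against 2904 of 3 and 2552 of 5), so that the number of fragments behind the Smad3 counts is uncertain. Smad2, whose product carries the same signal, stood at 38.5 ± 1.6 and 41.2 ± 3.07 CPM and Smad4, the shared partner, at 46.5 ± 3.15 and 49.2 ± 1.68 CPM, neither passing the test (adjusted p = 0.25 and 0.32). Per kb of exon in DMSO, Smad2 was at 4.38 and Smad4 at 12.5 CPM, against 0.103 CPM for Smad3.

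Smad7 (ENSMUSG00000025880) encodes the inhibitory SMAD that blocks the type I receptor. Its level was 5.61, 4.96 and 5.56 CPM in DMSO and 4.31, 5.02 and 4.22 CPM with BW723C86. BW723C86 replicate 2 fell within the DMSO range and the other two below it. The change did not pass (adjusted p = 0.16 by edgeR, log2 fold change -0.25, SE 0.14, interval 0.684- to 1.03-fold), with or without that library (adjusted p of 0.074 to 0.64 over all alternatives). Smad6, the inhibitory SMAD of the BMP branch, fell from 5.15 ± 0.366 to 2.45 ± 0.206 CPM (adjusted p = 8.4e-05, log2 fold change -1.07, SE 0.15). Among the SMAD genes 1 of 7 tested was called (14.3%, against 42% of all tested genes), Smad6, with a median log2 fold change of 0.07. The BMP-branch carriers Smad1 (12 ± 1.81 and 12.6 ± 1.37 CPM) and Smad5 (20.2 ± 0.571 and 19 ± 1.13 CPM) did not pass (adjusted p = 0.69 and 0.38). Smad9 was not tested, at 0 in all 3 DMSO libraries and 0.0411 ± 0.0361 CPM with BW723C86.

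Pmepa1 (ENSMUSG00000038400) was at 26.3, 28.3 and 29 CPM in DMSO and at 16.4, 16.3 and 17 CPM with BW723C86. Every BW723C86 library lay below every DMSO library, and the spread within each group was small beside the gap. The means fell from 27.9 ± 1.4 to 16.6 ± 0.395 CPM (adjusted p = 2e-06 by edgeR, log2 fold change -0.75, SE 0.07, interval 1.51- to 1.87-fold lower). Its change was lower than that of all but 8.2% of tested genes.

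Skil (ENSMUSG00000027660) was at 55.9, 56.7 and 57.7 CPM in DMSO and at 41.3, 48.5 and 44.2 CPM with BW723C86. The groups did not overlap, and BW723C86 replicate 2 lay nearest to DMSO. The means fell from 56.7 ± 0.91 to 44.7 ± 3.61 CPM (adjusted p = 0.00068 by edgeR, log2 fold change -0.34, SE 0.06, interval 1.15- to 1.39-fold lower). When the test required more than a 1.2-fold change, Skil no longer passed (adjusted p = 0.14, from a range of 5e-06 to 0.14 over all alternatives). Its close relative Ski, encoding the co-repressor that pairs with SnoN, had 254 ± 3.23 and 240 ± 5.08 CPM without passing (adjusted p = 0.13, log2 fold change -0.08), though it did without BW723C86 replicate 2 (adjusted p = 0.03, from a range of 0.03 to 1 over all alternatives).

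**Figure D2:**
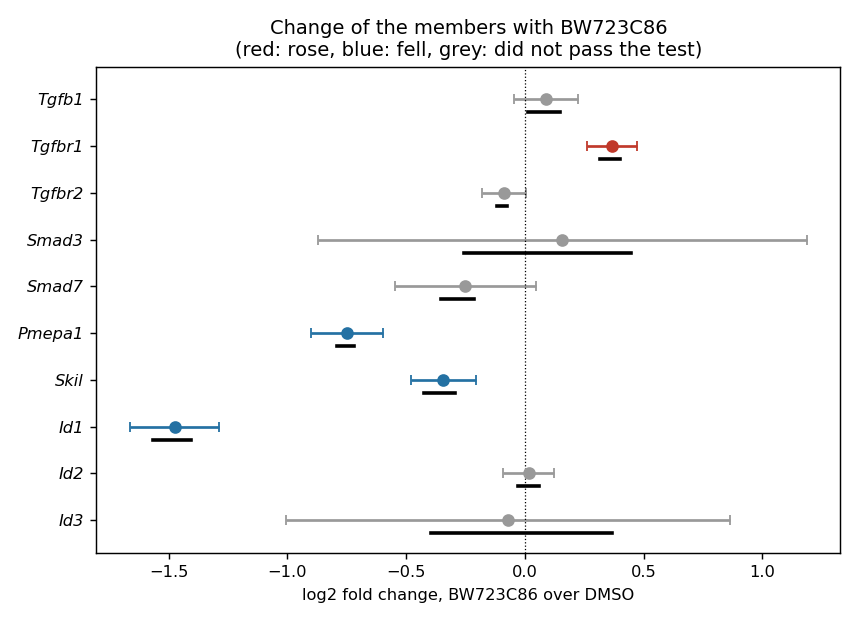
Log2 fold change of each member, BW723C86 over DMSO (x axis), with its 95% interval (coloured bars: red rose, blue fell, grey did not pass) and, in black below each, the range of estimates with each of the 6 libraries left out in turn. The intervals of Id1, Pmepa1, Skil and Tgfbr1 stay clear of 0, while the black ranges of Smad3, Id2 and Id3 cross it.

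Of the ID genes, Id1 alone passed the test; whether its change differs from those of Id2 and Id3 was not tested. Id1 (ENSMUSG00000042745) was at 65.6, 67.3 and 58 CPM in DMSO and at 25.7, 20.2 and 22.9 CPM with BW723C86. All 3 BW723C86 libraries lay below the lowest DMSO library by a wide margin. The means fell from 63.7 ± 4.94 to 22.9 ± 2.74 CPM (adjusted p = 2.1e-08 by edgeR, log2 fold change -1.48, SE 0.09, interval 2.44- to 3.16-fold lower). It was the largest change among the members, and 2.94% of tested genes had a lower log2 fold change.

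Id2 (ENSMUSG00000020644), known in myeloid cells for its part in dendritic cell development, was at 205, 188 and 186 CPM in DMSO and at 192, 203 and 190 CPM with BW723C86. The groups overlapped throughout. The means were 193 ± 10.1 and 195 ± 6.72 CPM (adjusted p = 0.84 by edgeR, log2 fold change 0.02, SE 0.05), and the interval of 0.937- to 1.09-fold bounds any change closely. Id1 over Id2 within a library, per kb of exon and so free of scaling between libraries, was 0.674, 0.753 and 0.654 in DMSO and 0.281, 0.209 and 0.253 with BW723C86. The ratio, chosen after the values were seen, thus separated the groups without overlap.

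Id3 (ENSMUSG00000007872) was barely detected, with counts of 43, 62 and 33 in DMSO and 51, 34 and 32 with BW723C86, or 0.668 ± 0.318 and 0.634 ± 0.224 CPM. The groups overlapped (adjusted p = 0.91 by edgeR, log2 fold change -0.07, SE 0.43), and the interval of 0.498- to 1.82-fold leaves room for changes of that size. The number of fragments behind these counts is uncertain, as for Smad3.

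The stretches before the starts of Id2 and Id3 are printed in the same form because these genes lay at opposite ends of the ID levels (Id2 at chr12:25096093-25096342, minus strand, and Id3 at chr4:136143572-136143821, plus strand, GRCm38.p6).
Id2: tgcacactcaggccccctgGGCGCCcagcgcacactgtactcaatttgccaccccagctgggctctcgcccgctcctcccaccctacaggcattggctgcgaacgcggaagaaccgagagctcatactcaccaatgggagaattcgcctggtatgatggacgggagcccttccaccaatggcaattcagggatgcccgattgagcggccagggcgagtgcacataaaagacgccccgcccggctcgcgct
Id3: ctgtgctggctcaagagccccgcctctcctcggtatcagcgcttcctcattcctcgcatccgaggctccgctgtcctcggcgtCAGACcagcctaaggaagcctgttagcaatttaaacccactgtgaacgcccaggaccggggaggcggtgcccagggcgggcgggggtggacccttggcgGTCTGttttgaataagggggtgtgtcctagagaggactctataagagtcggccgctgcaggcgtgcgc
The Id2 stretch holds 1 GGCGCC and 0 CAGAC, and that of Id3 holds 2 CAGAC, counted on both strands, and 0 GGCGCC. The stretches before Tgfb1 and Smad3, examined but not printed, hold 0 CAGAC and 0 GGCGCC each.

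Per kb of exon the members spanned a wide range of levels. In DMSO the order was Tgfb1 (100 ± 1.6 CPM per kb), Id2 (79.1 ± 4.15), Id1 (54.9 ± 4.26), Tgfbr1 (23.3 ± 0.938), Tgfbr2 (21.9 ± 0.233), Skil (5.85 ± 0.0939), Pmepa1 (5.67 ± 0.284), Smad7 (1.19 ± 0.0805), Id3 (0.373 ± 0.178) and Smad3 (0.103 ± 0.0434). Neighbours in this order did not overlap over the 3 libraries, apart from Skil and Pmepa1. With BW723C86, Id1 moved from the third to the fifth place at 19.8 ± 2.36 CPM per kb, where its libraries overlapped those of Tgfbr2 (20.6 ± 0.421). Pmepa1 (3.37 ± 0.0805) came to lie clear below Skil (4.61 ± 0.372). The exon length is that of all annotated exons of a gene, so that levels of genes with many long isoforms are understated.

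**Figure D3:**
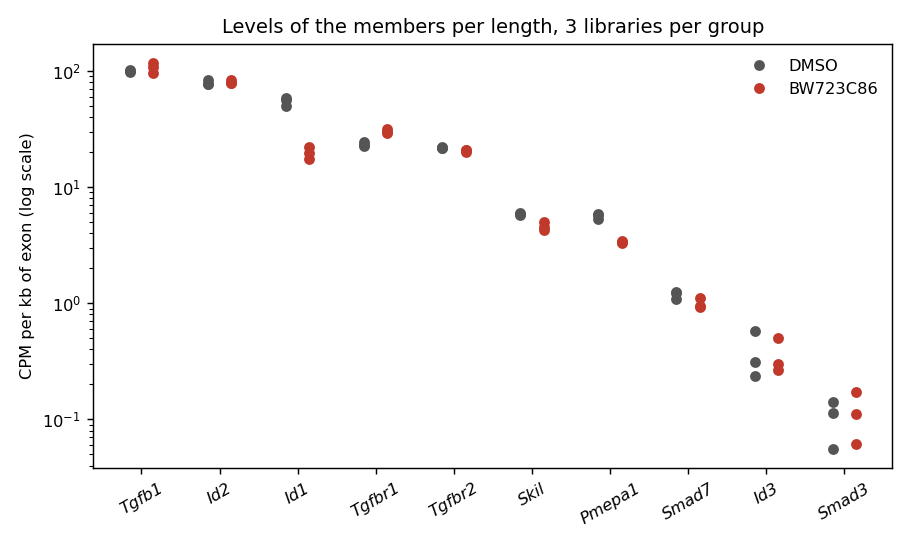
Level of each member per kb of annotated exon (y axis, CPM per kb, log scale) in 3 DMSO (grey) and 3 BW723C86 (red) libraries, ordered by the DMSO mean. Levels run from about 100 for Tgfb1 to about 0.1 for Smad3, and Id1 drops to the level of Tgfbr2 with BW723C86.

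Other genes of the pathway were taken from lists by role, with counts given without the members. Over all tested genes, 42% were called, 21.3% higher and 20.7% lower, with a median log2 fold change of 0.00. Among further receptors, 3 of 9 tested rose, 3 fell and 3 did not pass (median log2 fold change 0.15). Tgfbr3, encoding the co-receptor betaglycan that presents ligand to the type II receptor, fell from 13 ± 0.83 to 4.7 ± 0.697 CPM (adjusted p = 7.2e-07 by edgeR, log2 fold change -1.46, SE 0.12). Eng, encoding the co-receptor endoglin, rose from 19.8 ± 0.917 to 46 ± 4.44 CPM (adjusted p = 4.8e-08, log2 fold change 1.22, SE 0.08), and Acvrl1, encoding the type I receptor ALK1 that endoglin assists, rose from 25.4 ± 0.329 to 45.3 ± 4.62 CPM (0.83). The BMP receptor gene Bmpr1a fell from 7.22 ± 0.319 to 2.95 ± 0.854 CPM and the activin receptor gene Acvr1b from 76.8 ± 2.5 to 60.8 ± 1.84 CPM, but Acvr1b did not pass when more than a 1.2-fold change was required (adjusted p = 0.11, the highest over all alternatives). Bmpr2, encoding the type II BMP receptor, had 42.3 ± 1.39 and 43.7 ± 5.78 CPM without passing (adjusted p = 0.68). Acvrl1 over Tgfbr1 within a library, per kb, was 0.259, 0.268 and 0.242 in DMSO and 0.362, 0.302 and 0.401 with BW723C86. This ratio, also chosen after the values were seen and not tested, was higher in every BW723C86 library than in any DMSO library.

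**Figure D4:**
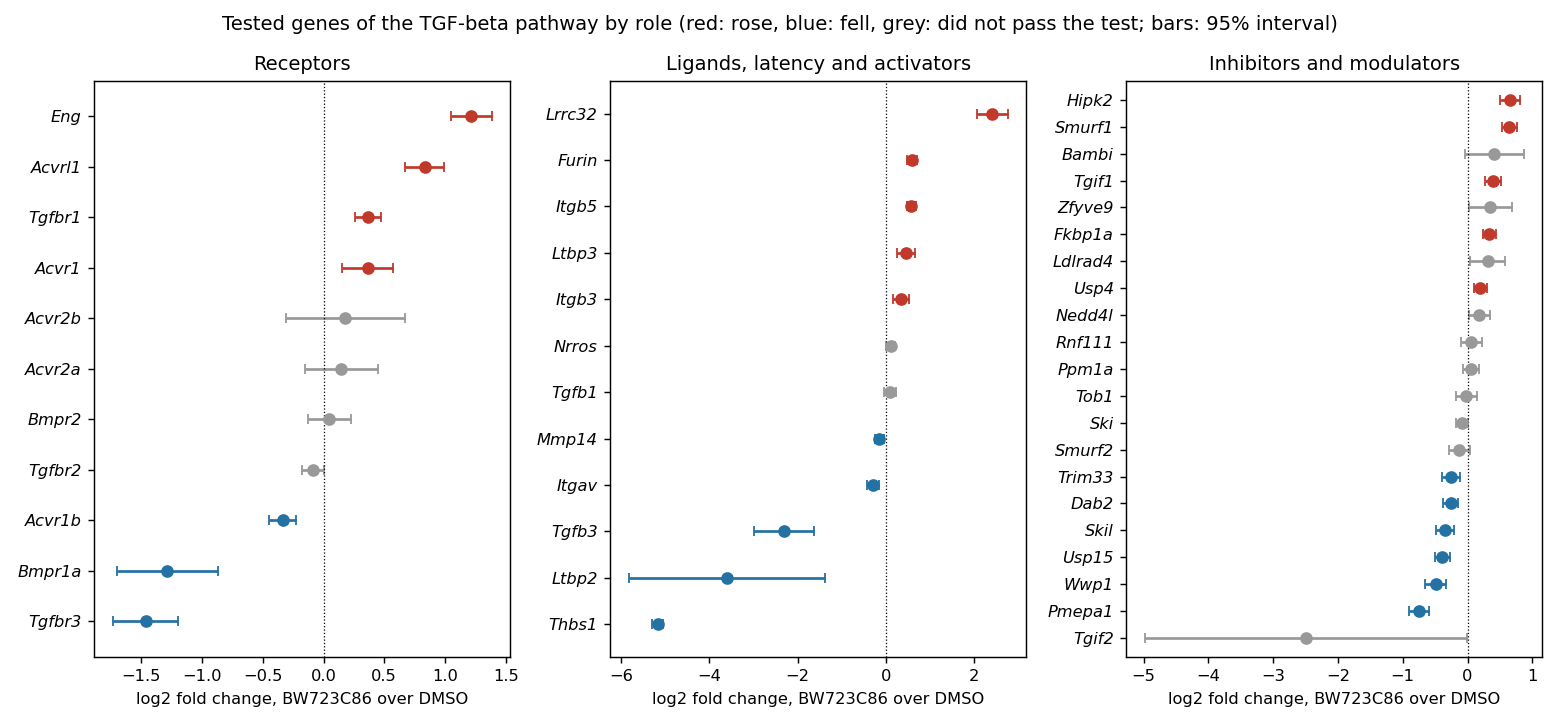
Log2 fold change (x axis, BW723C86 over DMSO) of tested genes in 3 roles, with 95% intervals, the members included. Receptors run from Tgfbr3 at -1.46 to Eng at 1.22, and among ligands, latency proteins and activators Thbs1 lies lowest at -5.18.

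Upstream of the receptors, 5 of 11 tested genes of ligand release rose and 5 fell (45.5% each). Of all tested genes, 21.3% rose and 20.7% fell. With Tgfb1 counted, 12 were tested. Without DMSO replicate 3, 3 of 12 tested fell, as did 3 of 13 tested without BW723C86 replicate 3. Without BW723C86 replicate 2, 7 of 12 tested rose. Thbs1, whose thrombospondin product can free TGF-beta from its latency peptide, was the lowest (adjusted p = 2.4e-15 by edgeR, log2 fold change -5.18, SE 0.05), and Tgfb3 fell from 2.27 ± 0.4 to 0.449 ± 0.176 CPM. Lrrc32, encoding GARP, which tethers latent TGF-beta to the cell surface, rose from 1.13 ± 0.0314 to 6 ± 0.44 CPM (log2 fold change 2.41, SE 0.16). Furin, whose protease cleaves the TGF-beta precursor, rose from 431 ± 5.93 to 648 ± 35.2 CPM, the integrin gene Itgb5 from 163 ± 5.42 to 243 ± 11.3 CPM and the latency protein gene Ltbp3 from 14.5 ± 0.384 to 19.8 ± 2.34 CPM. Nrros, encoding the latency anchor of myeloid cells, had 231 ± 2.7 and 248 ± 16.3 CPM without passing (adjusted p = 0.12), though it did pass without BW723C86 replicate 2 (adjusted p = 0.003, from a range of 0.003 to 1 over all alternatives).

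Among further inhibitors and modulators, 5 of 19 tested rose, 4 fell and 10 did not pass. These shares, 26.3% higher and 21.1% lower, were near those of all tested genes (21.3% and 20.7%). Smurf1, a ubiquitin ligase that targets SMADs and receptors, rose from 61 ± 1.86 to 95.5 ± 5.81 CPM, and Hipk2, encoding a kinase that binds SMAD co-repressors, from 42.7 ± 1.92 to 67.3 ± 6.98 CPM. Tgif1, encoding a homeodomain co-repressor of SMAD2, rose from 38.1 ± 1.58 to 50.1 ± 1.53 CPM, and Fkbp1a, whose product holds the type I receptor inactive, from 207 ± 5.69 to 261 ± 12.3 CPM, though Fkbp1a did not pass when more than a 1.2-fold change was required (adjusted p = 0.097, the highest over all alternatives). Usp15, a deubiquitinase gene of the pathway, fell from 66.2 ± 2.2 to 50.6 ± 1.42 CPM. The phosphatase gene Ppm1a was at 67.2 ± 2.29 and 69.5 ± 4.81 CPM (adjusted p = 0.54).

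Of further genes known as targets of SMAD2 and SMAD3, 9 of 18 tested were lower (50%, against 20.7% of all tested genes). A further 4 were higher (22.2%, against 21.3%) and 5 did not pass. Their median log2 fold change was -0.31, beside 0.00 over all tested genes. Those that fell included the fibronectin gene Fn1 (log2 fold change -3.16), which is also on the list of monocyte markers, Angptl4 (-2.15), encoding a lipase inhibitor, the growth factor gene Vegfa (-0.79) and the adhesion adaptor gene Nedd9 (-0.61). Bhlhe40, a transcription factor gene, rose by 0.34 on the log2 scale, as did Tgif1 by 0.4. Bhlhe40 did not pass when more than a 1.2-fold change was required (adjusted p = 0.052, the highest over all alternatives). With the members Pmepa1, Skil, Smad7 and Tgfb1 counted, 11 of 22 tested fell and 4 rose. Of this list, 7 genes fell without DMSO replicate 3, and 7 rose without BW723C86 replicate 2. These genes answer to many other signals. Beyond the ID genes and Smad7, targets known for SMAD1 and SMAD5 gave 2 of 5 tested lower (40%, against 20.7% of all tested genes), none higher and 3 not past. Smad6 was given above, and Gata2, encoding a transcription factor of blood precursors and mast cells, fell from 41.2 ± 0.547 to 13.2 ± 0.672 CPM. Tob1, encoding an antiproliferative protein that binds BMP-branch SMADs, was at 25.2 ± 1.55 and 24.9 ± 2.06 CPM.

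The E proteins that ID proteins bind were measured at moderate levels. Tcf3, encoding E12 and E47, was at 58.2 ± 0.981 and 60 ± 4.14 CPM, and Tcf12, encoding HEB, at 40.5 ± 1.2 and 40.1 ± 2.01 CPM, neither passing (adjusted p = 0.58 and 0.89 by edgeR). Tcf4, encoding E2-2, fell from 19.4 ± 1.52 to 15.8 ± 2.3 CPM (adjusted p = 0.036, log2 fold change -0.30, SE 0.11), and its groups overlapped. That call was lost without DMSO replicate 1, DMSO replicate 2 or BW723C86 replicate 3 (adjusted p of 0.0091 to 0.15 over the libraries left out in turn), and against a 1.2-fold change (adjusted p = 0.44, the highest over all alternatives).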

How the data were processed

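The submitters' processing notes name the tools fastp, HISAT2, StringTie and edgeR and the builds GRCm39 and GRCh38, without version, role or order. Per the labels' protocols, poly(A) RNA was made into libraries with dUTP-marked strands, and no source used here says whether counting used strand. What the authors deposited is a table of whole-number estimated counts, 1 row a gene. Symbols came from GENCODE release M21 for 27005 of 28822 identifiers, used for names and exon lengths, and no other M21 gene overlaps a member.

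A gene entered the fit if it passed edgeR's default expression filter (15567 genes). The test was edgeR 4.0.16's robust quasi-likelihood F test in R 4.3.3, two-sided, with TMM scaling. The script was tested on simulated data. Alternatives were other scalings, limma-voom (limma 3.58.1), DESeq2 1.42.0, other filters, counts divided by 4, a replicate block, a test for more than a 1.2-fold change and each library left out in turn. A count of 3, set as a nominal floor, equals 0.0386 to 0.0523 CPM. It covers counting error only, and lower values also occur (4678 values of 1 and 2858 of 2). Replicate pairs differed by more than sampling noise (chi-square per degree of freedom 2.65 to 10.2 even with counts divided by 4). The 10.2 was that of BW723C86 replicates 1 and 2. All 6 samples were kept, BW723C86 replicate 2 among them.

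The members and lists were chosen with earlier results of these data known. Named beside the members were, for each of the pathway lists, up to 6 genes of smallest p past the threshold and the 2 highest genes not past, plus all SMADs, TGF-beta receptors and E proteins. Marker genes and the ratios were named after their values were seen.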

Additional observations from a re-analysis of the deposited data

How the results depend on the processing

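The count of members called was 4 under each scaling, filter and tool tried, 3 against a fold change of 1.2 (Skil lost) and 4 to 6 with each library left out, the 6 without BW723C86 replicate 2. Over all genes 6534 were called, 3208 against a fold change of 1.2 and 5387 to 7153 with a library left out. Against 1.2-fold, with the members counted in their lists, calls went from 11 to 6 of 21 modulators, from 15 to 9 of 22 SMAD2 and SMAD3 targets and from 1 to 0 E proteins, and 0 to 1 E proteins with a library left out. Such a test asks for larger changes by construction. Of 157 values of members under alternatives 146 kept direction and side of the threshold. Directions that turned did so in genes never called, when a library was left out: log2 fold changes ran from -0.26 to 0.45 for Smad3, -0.030 to 0.058 for Id2, -0.39 to 0.37 for Id3, -0.080 to 0.12 for Bmpr2, -0.20 to 0.83 for Cx3cr1, -0.025 to 0.083 for Ppm1a, -0.024 to 0.19 for Smad1, -0.057 to 0.024 for Tcf12, -0.0049 to 0.084 for Tcf3, -0.10 to 0.033 for Tob1 and -0.038 to 0.071 for Twsg1. The cause was not tested. No scaling moved the median of all genes by over 0.1. Depth limits Smad3 and Id3, which the filter of 5 CPM removed, as dividing counts by 4 did Id3, so that these gave no value. Same-numbered samples did not deviate together from their group means (correlations 0.031, -0.025 and -0.0048). With 3 libraries a group, this cannot tell whether same-numbered samples shared a culture or batch. With the replicate number as a block 6179 genes and the same count of 4 members were called.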

Other observations

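Of the ligands and antagonists of the BMP, activin and GDF branches, 2 of 10 tested genes rose, 2 fell and 6 did not pass. These shares, 20% each way, were near those of all tested genes (21.3% and 20.7%). Inhba, encoding the activin A subunit, fell from 198 ± 1.92 to 60.4 ± 3.65 CPM (adjusted p = 3.4e-11 by edgeR, log2 fold change -1.71, SE 0.05). Fst, encoding follistatin, which neutralises activin, fell from 10.7 ± 0.942 to 0.966 ± 0.0551 CPM (-3.46, SE 0.14). Fstl1, a secreted relative of follistatin, rose from 279 ± 7.08 to 654 ± 21.9 CPM, and the stress-responsive gene Gdf15 from 14.6 ± 0.548 to 27.6 ± 1.92 CPM. The BMP antagonist gene Twsg1 (44.4 ± 2.09 and 45.2 ± 3.2 CPM) and the co-receptor gene Rgmb (14.6 ± 1.74 and 16.2 ± 1.12 CPM) did not pass (adjusted p = 0.78 and 0.25).

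On a list of macrophage and microglia genes tied to TGF-beta, 7 of 13 tested were higher, 5 lower and 1 not past. These shares were 53.8% and 38.5%, against 21.3% and 20.7% of all tested genes. The list mixes genes that need TGF-beta, such as Tmem119, with Itgax and Axl, which are known to rise in microglia when TGF-beta signalling is lost, so its counts give no direction for the pathway. Tmem119, a marker of mature microglia, fell from 28.3 ± 2.75 to 4.28 ± 0.493 CPM (adjusted p = 4.8e-10 by edgeR, log2 fold change -2.72, SE 0.11), and the purine receptor gene P2ry13 from 71.1 ± 2.56 to 28.7 ± 2.6 CPM. Fcrls, another microglial gene, rose from 93.3 ± 3.43 to 196 ± 15 CPM, Mertk from 39.2 ± 0.944 to 67.6 ± 2.8 CPM and Axl from 550 ± 3.63 to 962 ± 8.26 CPM. Itgax, encoding the integrin CD11c, rose from 471 ± 6.7 to 2360 ± 79 CPM and is also on the list of dendritic cell markers. The fractalkine receptor gene Cx3cr1 was low, at 0.24 ± 0.112 and 0.327 ± 0.218 CPM, and did not pass.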
